A study of Mus musculus with 16 samples.

Results

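The 10 genes described here belong to the Hippo-YAP pathway or are transcribed in response to it: *Yap1*, *Wwtr1*, *Tead1*, *Tead4*, *Lats1*, *Lats2*, *Vgll4*, *Ccn1*, *Ccn2* and *Amotl2*. They were taken as a list of symbols and matched through GENCODE M39 to the identifiers of the expression table, which holds 51912 genes. Each symbol matched 1 identifier, and all 10 were among the 20159 genes that had enough counts to be tested. RNA was sequenced from whole ventricles, including tissue above and below the ligation, of neonatal mice in 4 groups of 4 libraries. WT SH were C57BL/6J mice after sham surgery, KO SH were *Lrrc10*-/- mice after sham surgery, WT MI were C57BL/6J mice post-MI, and KO MI were *Lrrc10*-/- mice post-MI. Surgery was performed at postnatal day 1 and tissue was collected 7 days later. The infarct was made by ligating the left anterior descending coronary artery, and the sham operation opened and closed the chest without exposing the heart. *Lrrc10*-/- is a whole-body knockout made in the C57BL/6 background, and *Lrrc10* encodes a leucine-rich repeat protein of cardiomyocytes. The question behind the design is how the knockout alters the ventricle after sham surgery and after an injury that a neonatal mouse heart can repair. The KO MI libraries carry the replicate numbers 1, 2, 3 and 7, and those of the other groups run from 1 to 4. The labels number the libraries without stating that each came from its own mouse, so p-values measure the spread between these libraries.

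In the Hippo pathway, the kinases MST1 and MST2 activate LATS1 and LATS2, which phosphorylate the transcriptional coactivators YAP (*Yap1*) and TAZ (*Wwtr1*). Phosphorylated YAP and TAZ are held in the cytoplasm or degraded, whereas the unphosphorylated proteins enter the nucleus and bind DNA through transcription factors of the TEAD family. VGLL4 competes with YAP and TAZ for TEAD, AMOTL2 binds YAP outside the nucleus, and the secreted matricellular proteins CCN1 (CYR61) and CCN2 (CTGF) are widely used as readouts of YAP and TAZ activity. In the heart the pathway is known for its part in cardiomyocyte proliferation around birth. Much of its control is through phosphorylation and location of proteins, which RNA sequencing does not measure.

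The values are expected counts, that is, reads assigned to each gene by RSEM, which divides a read that fits several genes among them. Total counts ranged from 37842114 to 57470159 in WT SH, from 37962875 to 50123038 in KO SH, from 43166794 to 46184203 in WT MI and from 33783874 to 49334247 in KO MI. Levels are given as CPM, the count of a gene scaled to a fixed library size after TMM normalization. An edgeR adjusted p is from its quasi-likelihood test, with Benjamini-Hochberg adjustment across every gene tested, and permutation p-values were adjusted separately. Genes were called DEGs where the adjusted p was under 0.1 and the log2 fold change reached 0.5 in either direction. Among the 10 genes, the lowest count in a library was 111 (*Tead4*) and the highest was 19001 (*Tead1*).

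The targeted gene *Lrrc10* (ENSMUSG00000060187, chr10:116881246-116882673 of GRCm39, + strand) was measured at 30.7 ± 3.47 CPM in WT SH and 27.6 ± 1.26 CPM in WT MI (SD, n = 4). It had 0 counts in all 8 KO libraries. With 3 counts per library as the floor, *Lrrc10* was lower by at least 379-fold in the sham KO libraries and by at least 344-fold in the MI KO libraries, each against WT of the same surgery. Cardiomyocyte markers were abundant in every library, with a summed level of 10 markers between 30301 and 43948 CPM and *Myh6*, the main adult myosin heavy chain of mouse ventricle, as the most abundant.

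Some libraries stood apart before any Hippo-YAP gene was considered. KO MI replicates 2 and 7 carried transcripts of skeletal muscle, with 12 markers summing to 74.3 and 122 CPM, against 2.62 CPM in replicate 1 and 7.42 CPM in replicate 3. The same sum was between 1.62 and 2.83 CPM in WT SH, between 1.701 and 2.39 CPM in KO SH and between 2.02 and 13.4 CPM in WT MI. *Myh8*, the perinatal skeletal myosin, was the most abundant of these markers over the series, at 42.3 CPM in KO MI replicate 2 and 58.5 CPM in replicate 7, and *Tnnc2*, *Myog* and *Myod1* were at 0 in KO MI replicate 1. KO MI replicate 2 also had the lowest share of counts from mitochondrially encoded genes, 38.1%, against 41.4% to 47.8% in the other 15 libraries. The share was 45.5% to 46.7% in WT SH and 46.8% to 47.8% in KO SH. It was 43.5% to 44.2% in WT MI and 38.1% to 45% in KO MI, so only the MI groups overlapped. Its part in the differences reported below was not tested. *Xist*, which is expressed from the inactive X chromosome of females, was at 919 CPM or higher in KO SH replicates 1 and 2, WT MI replicates 2 and 4 and KO MI replicates 1 and 2, and at 23.4 CPM or lower in the other 10 libraries. All 4 WT SH libraries were among those 10, although the labels call the groups sex-balanced. Y-linked genes summed to between 160 and 165 CPM in WT SH and to at most 1.33 CPM in the libraries with high *Xist*. All 4 WT SH libraries thus read as male, so sex was not balanced in KO SH against WT SH or in WT MI against WT SH.

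None of the 10 genes was a DEG in any of the 5 contrasts. This was 0 of 10 in KO MI against WT MI, where 1.73% of all genes tested were DEGs, and 0 of 10 in KO SH against WT SH, where 5.01% were. It was also 0 of 10 in WT MI against WT SH (2.78% of all genes), in KO MI against KO SH (7.42%) and in the interaction, the KO effect post-MI minus the KO effect post-sham (0.0248%). Below the fold threshold, at an adjusted p under 0.1 and any fold change, *Wwtr1* was lower in KO MI against WT MI, which is 1 of 10 genes against 3.07% of all genes (2.04% lower and 1.03% higher). *Wwtr1* was also lower and *Tead1* higher in KO SH than in WT SH, 2 of 10 against 12.3% of all genes (7.22% lower and 5.11% higher). *Vgll4* was lower in KO MI than in KO SH, 1 of 10 against 17.5% of all genes (7.32% lower and 10.2% higher). None passed in WT MI against WT SH (5.31% of all genes, 3.11% higher and 2.21% lower) or in the interaction (0.0248%). At an unadjusted p under 0.05 in the same edgeR fit, 12.4% of all genes passed in KO MI against WT MI, 22.8% in KO SH against WT SH, 16.5% in WT MI against WT SH, 26.2% in KO MI against KO SH and 13.6% in the interaction. Fold changes and intervals of the 10 genes are plotted by contrast. In whole-tissue RNA, fewer cells of a type and less RNA per cell cannot be told apart, and this applies to each difference reported here.

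**Figure D1:**
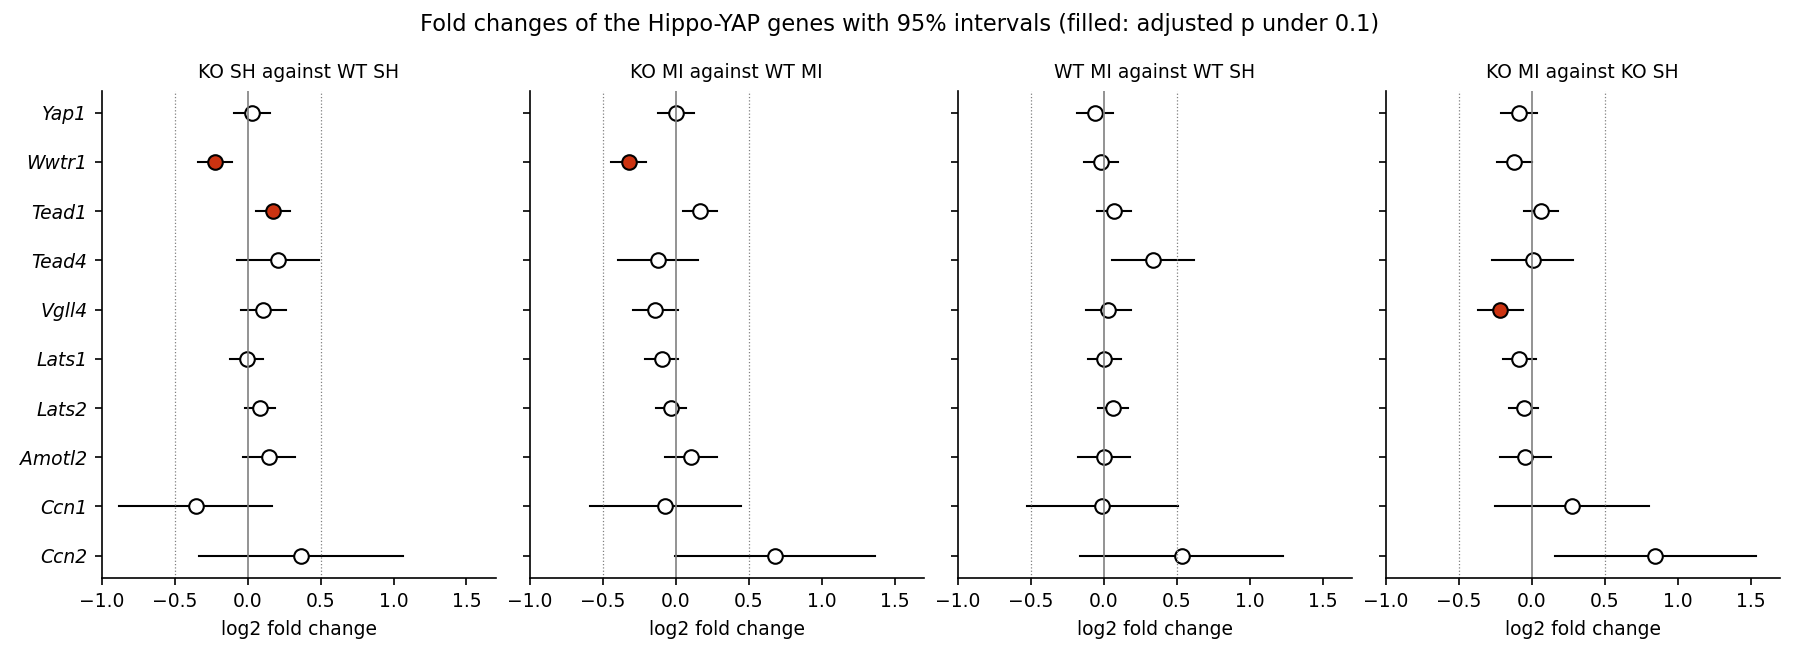
Log2 fold change (x axis) of each of the 10 genes (y axis) in the 4 contrasts between groups, with 95% intervals from the edgeR fit. Filled points have an adjusted p under 0.1 and dotted lines mark a log2 fold change of 0.5 in either direction. *Wwtr1* lies below 0 in both KO against WT contrasts, at -0.22 and -0.32, and the intervals of *Ccn1* and *Ccn2* are several times wider than those of the kinases.

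Levels per kilobase of exon, which allow a comparison between genes, ranged from *Tead1* at 23.1 CPM per kb down to *Tead4* at 0.563 CPM per kb (means over the 16 libraries). Between them came *Ccn2* at 9.07, *Wwtr1* at 8.57, *Lats2* at 7.17, *Amotl2* at 7.16, *Ccn1* at 5.56, *Yap1* at 4.46, *Lats1* at 3.49 and *Vgll4* at 2.26 CPM per kb. The steps from *Yap1* to *Lats1*, from *Lats1* to *Vgll4* and from *Vgll4* to *Tead4* were larger than the spread, since the intervals of mean ± SD did not overlap in any of the 4 groups. Each of the other neighbouring pairs overlapped in at least 1 group. By the same measure *Tead1* lay above *Ccn2*, and *Wwtr1* above *Lats2*, in every group but KO MI. The 4 remaining pairs were separated in 1 group each. *Lats2* (6.96 ± 0.0893 CPM per kb) and *Amotl2* (6.85 ± 0.632 CPM per kb) overlapped in WT SH, and *Ccn1* (4.68 ± 1.13 CPM per kb) and *Yap1* (4.62 ± 0.171 CPM per kb) overlapped in KO SH (SD, n = 4). The place of *Ccn2* depended on the group. In WT SH it was at 5.99 ± 1.02 CPM per kb, below *Wwtr1* at 9.44 ± 0.149 CPM per kb, and in KO MI it was at 13.9 ± 10.6 CPM per kb, with an interval that reached that of *Tead1* at 24.9 ± 1.76 CPM per kb. *Tead1* counts were 66.2 to 108 times those of *Tead4* within a library, uncorrected for length. The length used is the union of all annotated exons of a gene, so a level per kb understates a gene whose main transcript uses few of them.

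**Figure D2:**
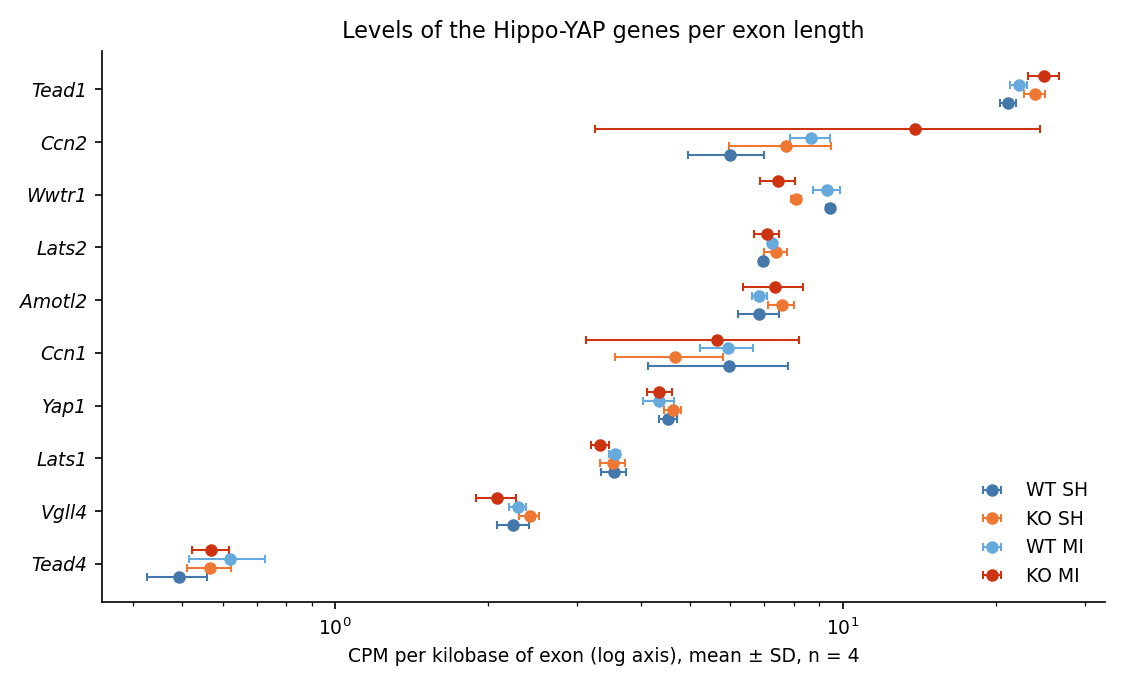
Level of each gene in CPM per kilobase of exon (x axis, log scale), as the mean with SD bars over the 4 libraries of each group. *Tead1* is near 23.1 and *Tead4* near 0.563 CPM per kb, and *Ccn2* in KO MI has the widest bar.

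*Yap1* (ENSMUSG00000053110, chr9:7932000-8004661, - strand) encodes the coactivator YAP, and its transcript was at nearly the same level in all groups. The WT SH libraries had 40.05, 43.5, 42.6 and 43.9 CPM, and the KO SH libraries had 42.8, 45.5, 43.4 and 41.7 CPM. The WT MI libraries had 44.0, 40.01, 37.3 and 41.5 CPM, and the KO MI libraries had 43.1, 40.8, 41.8 and 37.7 CPM. All 4 groups overlapped. The log2 fold change was 0.00 in KO MI against WT MI, with a 95% interval of -0.12 to 0.13 and an edgeR adjusted p of 0.988. In the other contrasts between groups the log2 fold changes of *Yap1* ranged from -0.09 to 0.03, so a change of the size of the DEG threshold lay outside every interval.

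*Wwtr1* (ENSMUSG00000027803, chr3:57363067-57483331, - strand) encodes TAZ, the paralog of YAP, and was the member that separated KO from WT. It was at 109.7, 111, 113 and 114 CPM in WT SH and at 117, 103, 106 and 115 CPM in WT MI. In KO SH it was at 93.0, 97.9, 96.1 and 95.8 CPM, and in KO MI at 89.9, 88.3, 95.5 and 78.7 CPM. Every KO library was below every WT library, in sham and MI alike. Of all genes tested, 0.744% had all 8 KO libraries below all 8 WT libraries, and 0.332% had them above. *Wwtr1* fell by 20.0% in KO MI against WT MI (log2 fold change -0.32, standard error 0.0565, edgeR adjusted p = 0.00473). In KO SH against WT SH it fell by 14.3% (log2 fold change -0.22, standard error 0.0565, edgeR adjusted p = 0.0227). Both changes were under the fold threshold for a DEG. By exact permutation of the libraries (two-sided, on log2(CPM + 0.5)) both reached p = 0.0286, the smallest p that 4 against 4 libraries allow, and 0.163 after adjustment over the 40 such tests of the 10 genes. Post-MI the KO effect on the log2 scale was -0.25 without replicates 2 and 7 (edgeR adjusted p = 0.0244) and -0.32 with *Xist* as a covariate (edgeR adjusted p = 0.00717). Fitted with only the WT MI and KO MI libraries, it was -0.32 with a larger standard error of 0.0702 (edgeR adjusted p = 0.0833). In KO SH against WT SH it was -0.22 with *Xist* as a covariate (edgeR adjusted p = 0.0525). MI itself had little measured effect on *Wwtr1*, at a log2 fold change of -0.02 in WT (95% interval -0.14 to 0.10, edgeR adjusted p = 0.905) and -0.12 in KO (95% interval -0.24 to 0.00, edgeR adjusted p = 0.192). The value in KO was -0.07 without KO MI replicate 7 and -0.05 without KO MI replicates 2 and 7.

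The balance of both coactivators can be read within a library as the ratio of *Wwtr1* to *Yap1* counts, which does not depend on normalization. The ratio lay between 2.55 and 2.74 in WT SH and between 2.57 and 2.86 in WT MI. It lay between 2.15 and 2.30 in KO SH and between 2.09 and 2.29 in KO MI, below the range of either WT group. This ratio repeats the *Wwtr1* result and is given as a description. Endothelial markers, 7 genes led by *Kdr*, summed to between 911 and 933 CPM in WT SH and between 838 and 882 CPM in KO SH, and 7 smooth muscle and pericyte markers led by *Rgs5* summed to between 814 and 918 CPM and between 715 and 772 CPM. Both sums were lower in every KO SH library, as *Wwtr1* was, with 0 and 1 of the 7 markers lower as DEGs. At an adjusted p under 0.1 with any fold change, the threshold that *Wwtr1* passed, 5 of 10 cardiomyocyte markers were lower and 0 higher in KO SH (7.22% and 5.11% of all genes, median log2 fold change of the list -0.17), with *Myh6* at -0.35. Their sums overlapped, at 31791 to 32757 CPM in KO SH against 32203 to 43948 CPM in WT SH. By that threshold 2 of 9 fibroblast markers, *Postn* and *Dpt*, were lower and 0 higher, none of the endothelial markers passed, and 1 smooth muscle and pericyte marker was higher and 1 lower. The sum of 7 macrophage markers led by *Mrc1* was lower too, at 40.5 to 48.6 CPM in KO SH against 49.3 to 57.4 CPM in WT SH, with 2 of the 7 lower as DEGs. Of 6 mesothelial markers, 4 were higher and 1 was lower as DEGs between the sham groups, while their sums overlapped at 28.6 to 30.4 against 28.1 to 31.1 CPM. Between the MI groups the endothelial and the smooth muscle and pericyte sums overlapped, at 760 to 854 against 708 to 852 CPM and at 679 to 796 against 712 to 786 CPM. No marker of these lists was at 0, and their part in the level of *Wwtr1* was not tested.

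**Figure D3:**
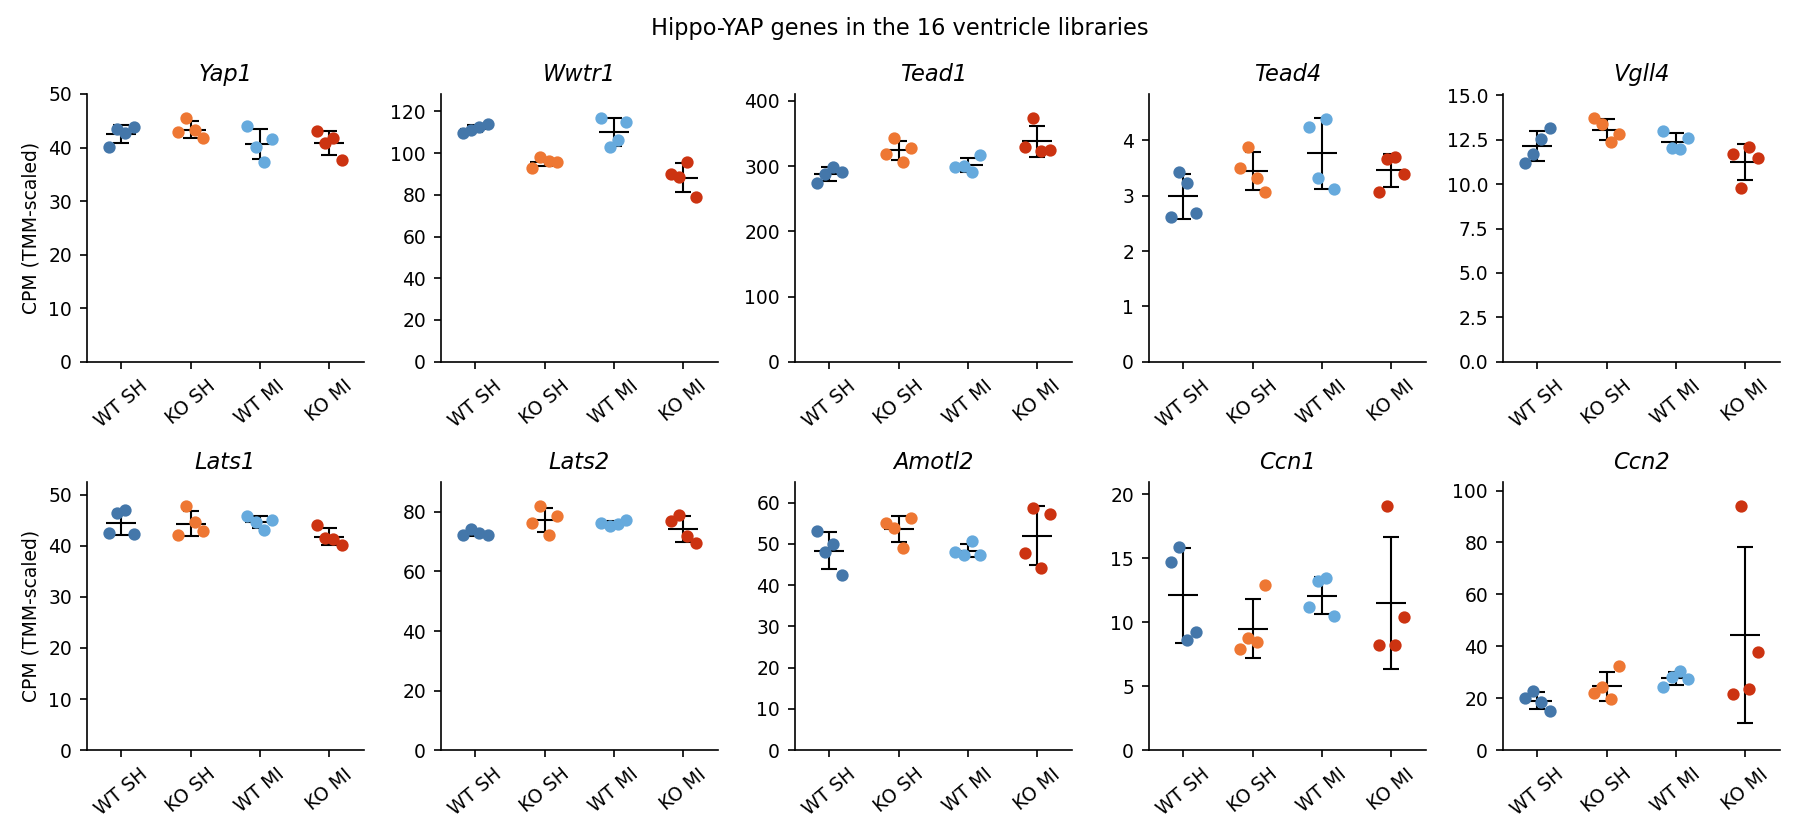
CPM (y axis, from 0) of each of the 10 genes in the 16 libraries, with points for libraries and black bars for mean and SD of each group (x axis). All 8 KO points of *Wwtr1* lie at 97.9 CPM or lower and all 8 WT points at 103 CPM or higher, while 1 KO MI library of *Ccn2* lies at 93.9 CPM.

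*Tead1* (ENSMUSG00000055320, chr7:112278522-112506014, + strand) encodes a TEAD factor long known to bind MCAT elements of muscle genes. It was at 273, 289, 298 and 290.5 CPM in WT SH and at 319, 343, 307 and 328 CPM in KO SH. It was at 298, 301, 290.4 and 317 CPM in WT MI and at 329.9, 374, 324 and 326 CPM in KO MI. The KO libraries were above the WT libraries after each surgery, with no overlap within sham or within MI. *Tead1* rose by 12.7% in KO SH against WT SH (log2 fold change 0.17, standard error 0.0559, edgeR adjusted p = 0.068), under the fold threshold. With *Xist* as a covariate the log2 fold change was 0.12 and the edgeR adjusted p was 0.227. The edgeR adjusted p for *Tead1* was also above 0.1 without a filter on low counts (0.11) and in 5 of the 8 fits without 1 library of the contrast, those without WT SH replicate 1 or 2 or without KO SH replicate 1, 2 or 4, with values up to 0.187. Between the MI groups the log2 fold change was of the same size, 0.17 (standard error 0.0559), with an edgeR adjusted p of 0.174. That p was 0.0637 with the replicate number as a block and 0.0863 without KO MI replicate 7. No other group has a replicate 7, so the block also takes that library out, and these fits are not separate checks. The adjusted p of the DESeq2 Wald test was 0.0853. Genes without overlap between groups made up 18.5% of all genes in KO SH against WT SH (8.35% higher and 10.2% lower) and 6.47% in KO MI against WT MI (2.74% higher and 3.73% lower), and *Wwtr1* and *Tead1* were the 2 of the 10 in each.

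*Tead4* (ENSMUSG00000030353, chr6:128201251-128277786, - strand) encodes another TEAD factor and was the least abundant member. It was at 2.99 ± 0.400 CPM in WT SH, 3.44 ± 0.345 CPM in KO SH, 3.77 ± 0.639 CPM in WT MI and 3.46 ± 0.291 CPM in KO MI (SD, n = 4). The groups overlapped in every contrast. Its log2 fold change was largest in WT MI against WT SH, at 0.34 with a 95% interval of 0.06 to 0.62 and an edgeR adjusted p of 0.197.

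*Vgll4* (ENSMUSG00000030315, chr6:114837589-114946955, - strand) encodes the competitor of YAP for TEAD. It was at 13.7, 13.4, 12.4 and 12.8 CPM in KO SH and at 11.7, 9.78, 12.1 and 11.5 CPM in KO MI. These groups did not overlap, as was so for 14.9% of all genes in this contrast (7.68% higher and 7.24% lower), and *Vgll4* was the 1 of the 10 genes. *Vgll4* fell by 13.8% in KO MI against KO SH (log2 fold change -0.21, standard error 0.0736, edgeR adjusted p = 0.0673), under the fold threshold. The lowest library was KO MI replicate 2, and without it the log2 fold change was -0.15 (edgeR adjusted p = 0.229). The edgeR adjusted p was also above 0.1 without KO SH replicate 1 (0.173), 2 (0.138) or 4 (0.109), without a filter on low counts (0.116) and with only the groups of the contrast (0.142). Without KO MI replicates 2 and 7 the log2 fold change was -0.14 (edgeR adjusted p = 0.293). The WT libraries ranged from 11.2 to 13.2 CPM after sham surgery and from 11.96 to 13.0 CPM post-MI. The interaction had an unadjusted p of 0.0301 and an edgeR adjusted p of 0.314 for *Vgll4*, so a difference of the MI effect between genotypes was not shown. Cell type markers that moved in KO MI against KO SH are given below with the target genes. Their part in the level of *Vgll4* was not tested.

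The LATS kinases, which inactivate YAP and TAZ, changed little. *Lats1* (ENSMUSG00000040021, chr10:7556736-7592226, + strand) was at 44.5 ± 2.45 CPM in WT SH, 44.3 ± 2.498 CPM in KO SH, 44.6 ± 1.09 CPM in WT MI and 41.8 ± 1.64 CPM in KO MI (SD, n = 4). Its log2 fold changes between groups lay from -0.09 to 0.00, and the largest, in KO MI against WT MI, had a 95% interval of -0.21 to 0.02 (edgeR adjusted p = 0.522). *Lats2* (ENSMUSG00000021959, chr14:57926960-57995845, - strand), also a known transcriptional target of YAP, was at 72.3, 74.3, 72.9 and 72.4 CPM in WT SH and at 76.4, 75.1, 75.9 and 77.2 CPM in WT MI. These groups did not overlap, yet the difference was small, a log2 fold change of 0.06 (95% interval -0.04 to 0.16, edgeR adjusted p = 0.567). In KO SH *Lats2* ranged from 72.3 to 81.8 CPM and in KO MI from 69.6 to 78.9 CPM. *Lats1* and *Ccn2* lie on the chromosome of the deleted gene, 109 Mb and 92.4 Mb from *Lrrc10*.

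*Amotl2* (ENSMUSG00000032531, chr9:102593836-102610617, + strand) encodes an angiomotin-like scaffold that binds YAP and is itself induced by YAP. It was at 53.1, 48.0, 49.9 and 42.5 CPM in WT SH and at 55.1, 53.9, 49.1 and 56.2 CPM in KO SH. It was at 48.1, 47.2, 50.8 and 47.4 CPM in WT MI and at 47.7, 58.7, 44.3 and 57.2 CPM in KO MI. KO MI replicates 2 and 7 had the highest levels of the 16 libraries, and the groups overlapped in every contrast. The log2 fold change was 0.10 in KO MI against WT MI (95% interval -0.07 to 0.28, edgeR adjusted p = 0.705) and -0.07 without replicates 2 and 7. In KO it was -0.04 post-MI against sham (edgeR adjusted p = 0.799) and -0.22 without the same libraries (edgeR adjusted p = 0.0739), under the fold threshold. In KO SH against WT SH it was 0.15 (95% interval -0.03 to 0.32, edgeR adjusted p = 0.318), and 0.089 without WT SH replicate 4.

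*Ccn1* (ENSMUSG00000028195, chr3:145352720-145355738, - strand) and *Ccn2* (ENSMUSG00000019997, chr10:24471333-24474900, + strand) encode secreted matricellular proteins and are the target genes most used as readouts of YAP and TEAD. The 250 bases before the start site of the canonical transcript of *Ccn1* are shown because the gene is known as a direct target of TEAD. Capitals mark the core of the TEAD motif, GGAATG or CATTCC on the other strand, and the sequence is from GRCm39, written 5′ to 3′ in the direction of the gene.
Ccn1, chr3:145355739-145355988, - strand: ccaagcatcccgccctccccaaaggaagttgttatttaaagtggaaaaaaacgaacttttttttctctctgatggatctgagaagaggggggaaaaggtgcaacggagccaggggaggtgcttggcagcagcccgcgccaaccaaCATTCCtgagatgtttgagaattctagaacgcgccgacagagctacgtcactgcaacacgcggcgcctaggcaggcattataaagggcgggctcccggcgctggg
The window of *Ccn1* held 1 such motif, beginning 105 bases before the start site. Windows of the same length were read for 9 of the genes, and the motif was present in 5 of them (*Yap1*, *Wwtr1*, *Tead1*, *Ccn1* and *Amotl2*) and in 12.1% of the windows of 21757 protein-coding genes. The window of *Amotl2* lies within the annotated gene and overlaps exons of other *Amotl2* transcripts. Those of *Lats2* and *Vgll4* also lie within the annotated gene. TATAAA, searched on the strand of the gene, was present for *Ccn1*, 27 bases before the start site, and for *Lats2*, 243 bases before it. It was present in 8.04% of all windows. The AP-1 motif TGANTCA, the same on both strands, was in 0 of the 9 windows and 6.18% of all, and the CArG box bound by serum response factor was in 0 of the 9 and 1.4% of all. A motif is a match of letters and was not tested as a binding site. The window of *Ccn1* also overlaps exons of the antisense lncRNA gene *Gm17501*.

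*Ccn1* varied more between libraries of a group than between groups. It was at 14.7, 15.9, 8.64 and 9.26 CPM in WT SH and at 7.91, 8.75, 8.47 and 12.9 CPM in KO SH. It was at 11.2, 13.2, 13.5 and 10.5 CPM in WT MI and at 8.25, 19.1, 8.23 and 10.4 CPM in KO MI. The highest library was KO MI replicate 2, and the 4 groups overlapped. The log2 fold change was -0.36 in KO SH against WT SH (standard error 0.25, edgeR adjusted p = 0.425) and -0.07 in KO MI against WT MI (standard error 0.246, edgeR adjusted p = 0.948). The intervals, -0.88 to 0.17 and -0.59 to 0.45, include changes past the DEG threshold. Without 1 library of the contrast, the log2 fold change in KO SH against WT SH ran from -0.54 to -0.20.

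*Ccn2* was higher in all 4 WT MI libraries than in all 4 WT SH libraries, and it had 1 extreme library in KO MI. It was at 20.1, 22.8, 18.5 and 15.0 CPM in WT SH and at 24.5, 28.3, 30.5 and 27.2 CPM in WT MI. In KO SH it was at 22.0, 24.4, 19.6 and 32.5 CPM, and in KO MI at 21.6, 93.9, 23.7 and 37.8 CPM. The value of 93.9 CPM is that of KO MI replicate 2, and the other KO MI libraries were within the range of KO SH or just above it.

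Post-MI in WT, the log2 fold change of *Ccn2* was 0.53 (standard error 0.331) with an edgeR adjusted p of 0.453, as 1 estimate of the spread per gene was shared by the 4 groups. Fitted with only the WT SH and WT MI libraries, the log2 fold change was 0.54 and the edgeR adjusted p was 0.0161, which made *Ccn2* a DEG. Without KO MI replicates 2 and 7 the edgeR adjusted p was 0.0254. The exact permutation test (two-sided) gave p = 0.0286, the smallest possible, and 0.163 adjusted over the 40 tests. Genes without overlap made up 12.1% of all genes in this contrast (6.16% higher and 5.94% lower), and *Ccn2* and *Lats2* were the 2 of the 10. With *Xist* as a covariate the log2 fold change was 0.39 (edgeR adjusted p = 0.688).

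Between KO MI and WT MI the log2 fold change of *Ccn2* was 0.68 (standard error 0.326, edgeR adjusted p = 0.408), and it was -0.00 without KO MI replicate 2 and -0.29 without replicates 2 and 7. Between KO MI and KO SH it was 0.85 (standard error 0.328, edgeR adjusted p = 0.105), and it was 0.17 without replicate 2 and -0.12 without replicates 2 and 7. It passed as a DEG in KO MI against KO SH when KO MI replicate 1, 3 or 7 was left out, with edgeR adjusted p-values of 0.0274, 0.0561 and 0.0774. The size of these differences rested on KO MI replicate 2.

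The skeletal muscle sum was 74.3 CPM in KO MI replicate 2 and 122 CPM in replicate 7, not in the order of *Ccn2*, which was at 93.9 and 37.8 CPM. Other marker sums of KO MI replicate 2 lay within the range of the other KO MI libraries: 3143 CPM for 9 fibroblast markers, between 2855 and 3196 CPM, with *Col3a1* as the most abundant, and 44.0 CPM for 6 mesothelial (epicardial) markers, between 27.9 and 54.7 CPM, with *Wt1* as the most abundant. Its macrophage sum was 61.4 CPM, between 47.8 and 102 CPM, with *Mrc1* as the most abundant, and its cardiomyocyte sum, 30301 CPM, was the lowest of the 16 libraries. The fibroblast sum was between 2698 and 3150 CPM in WT MI and between 2230 and 2622 CPM in WT SH, without overlap, as for *Ccn2*, although none of the 9 markers was a DEG. The mesothelial sum did not overlap either, with 39.3 to 52.3 CPM in WT MI and 28.1 to 31.1 CPM in WT SH, and 4 of its 6 markers were higher as DEGs. The macrophage sum was likewise higher in every WT MI library, at 58.4 to 71.8 against 49.3 to 57.4 CPM, with 0 of 7 markers as DEGs. The endothelial sum (760 to 854 against 911 to 933 CPM) and the smooth muscle and pericyte sum (679 to 796 against 814 to 918 CPM) were lower in every WT MI library. At an adjusted p under 0.1 with any fold change, 3 of 9 fibroblast markers were higher in WT MI and 0 lower (3.11% and 2.21% of all genes). By that threshold 3 of 10 cardiomyocyte, 1 of 7 endothelial and 3 of 7 smooth muscle and pericyte markers were lower and 0 higher. The part of these cell types in the levels of *Ccn2* was not tested.

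**Figure D4:**
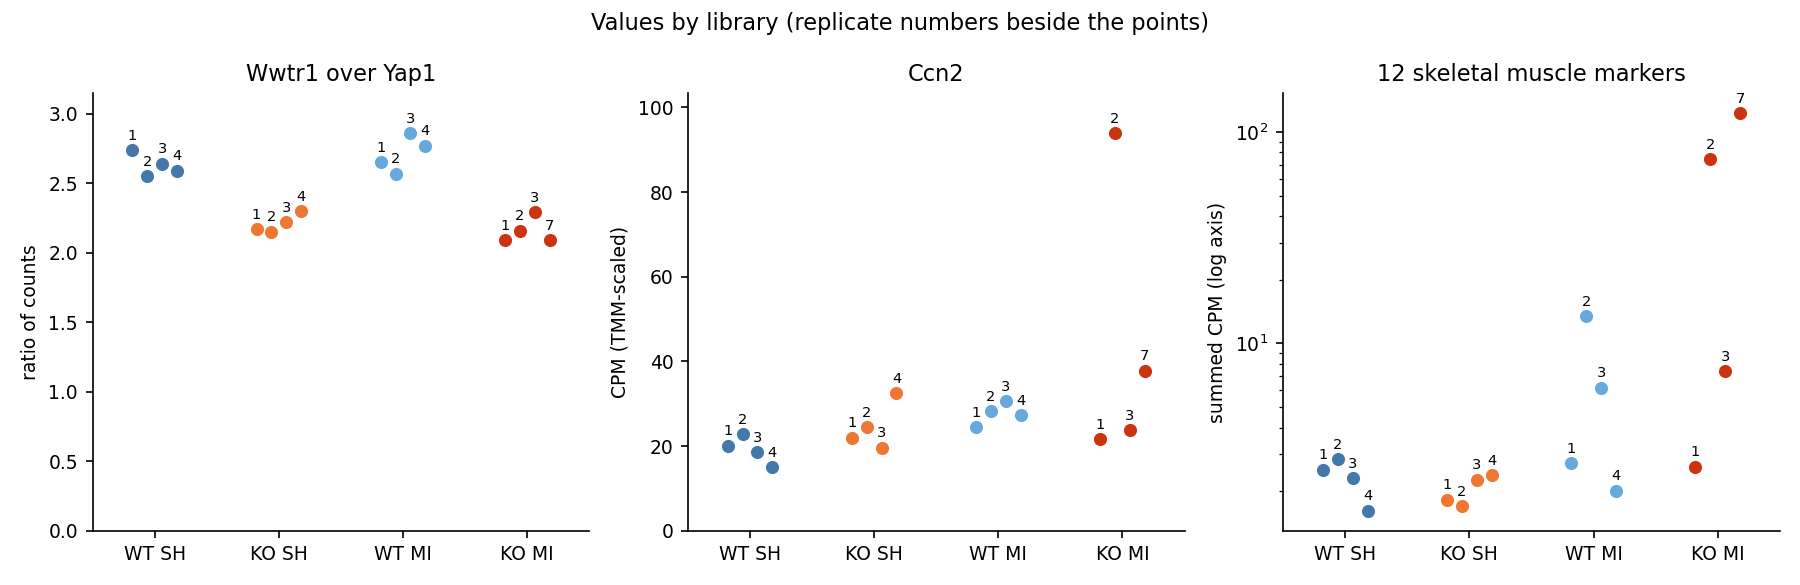
Left, ratio of *Wwtr1* to *Yap1* counts, between 2.55 and 2.86 in WT and between 2.09 and 2.30 in KO. Middle, *Ccn2* in CPM, highest in KO MI replicate 2 at 93.9. Right, summed CPM of 12 skeletal muscle markers on a log axis, highest in KO MI replicate 7 at 122. Points are libraries of each group (x axis) with their replicate numbers.

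Beyond the 10 genes, 61 further genes of the pathway were read from 3 lists, of which 57 were tested. Of these 57, 1 was higher and 2 were lower as DEGs in KO MI against WT MI (0.57% and 1.16% of all genes), and 2 were higher and 3 lower in KO SH against WT SH (2.48% and 2.53%). In WT MI against WT SH 3 were higher and 0 lower (2.13% and 0.645%), and in KO MI against KO SH 9 were higher and 0 lower (5.31% and 2.11%). None was a DEG in the interaction. The fold changes of the upstream genes and of the target genes are plotted by contrast.

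Upstream kinases and scaffolds, 31 genes that include the MST kinases, their adaptors and the angiomotins, were mostly flat. The median log2 fold change was 0.01 in KO MI against WT MI, -0.02 in KO SH against WT SH, 0.01 in WT MI against WT SH and 0.01 in KO MI against KO SH, beside medians of all genes of 0.01, 0.01, -0.00 and -0.01. *Csnk1e*, casein kinase 1 epsilon, was at 107, 76.5, 97.9 and 104 CPM in WT MI and at 62.9, 64.5, 63.1 and 74.5 CPM in KO MI. All 4 KO MI libraries were below the WT MI libraries, and *Csnk1e* fell by 0.54 on the log2 scale (standard error 0.125, edgeR adjusted p = 0.0306). It was not called without WT MI replicate 1 (edgeR adjusted p = 0.112) or 4 (0.102). *Wwc1*, which encodes the scaffold KIBRA, was near 1 CPM or lower, and it rose in KO SH against WT SH, with overlapping groups (0.559 ± 0.122 against 0.282 ± 0.111 CPM, SD, n = 4, log2 fold change 0.95, edgeR adjusted p = 0.0844). That call was lost with *Xist* as a covariate (log2 fold change 0.99, edgeR adjusted p = 0.113) and in 6 of the 8 fits without 1 library, all but those without WT SH replicate 1 or KO SH replicate 2. It also rose in WT MI against WT SH (0.766 ± 0.194 CPM in WT MI, log2 fold change 1.40, edgeR adjusted p = 0.0231). The most abundant others, *Taok1*, *Fat1*, *Amotl1* and *Map4k4*, were not DEGs. *Fat1*, a giant protocadherin, was at 213, 352, 225 and 199.5 CPM in KO MI, with replicate 2 again highest, and between 181 and 191 CPM in KO SH (log2 fold change 0.41, edgeR adjusted p = 0.0364, under the fold threshold).

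Of the TEAD and VGLL family, *Tead2*, *Tead3* and *Vgll3* were tested, while *Vgll1* had no count in any library and *Vgll2* had too few to be tested. *Tead2* was at 9.37 ± 0.197 CPM in WT SH and 11.3 ± 0.621 CPM in KO SH (log2 fold change 0.27, edgeR adjusted p = 0.186). *Tead3* was between 5.13 and 5.93 CPM in WT SH and between 5.22 and 8.48 CPM in KO MI, and was not a DEG. *Vgll3*, a cofactor of TEAD factors, was at 3.38, 3.56, 2.86 and 3.70 CPM in KO SH and at 4.82, 8.70, 5.24 and 2.60 CPM in KO MI. Its call in KO MI against KO SH (log2 fold change 0.67, edgeR adjusted p = 0.067) came with overlapping groups, and KO MI replicates 2 and 7 were the highest and the lowest. Its call was lost in 6 of the 8 fits without 1 library, those without any 1 KO SH library or without KO MI replicate 2 or 3, and without KO MI replicate 2 the log2 fold change was 0.34.

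Of 27 known YAP and TAZ target genes besides the members, 25 were tested. They showed the largest count in KO MI against KO SH, where 8 rose and 0 fell (5.31% and 2.11% of all genes, also the largest share called among the contrasts), with a median log2 fold change of 0.24 beside -0.01 for all genes. The 8 were *Ankrd1*, *Myof*, *Igfbp3*, *Ccdc80*, *Birc5*, *Tagln*, *Thbs1* and *Ccn5*, the last 3 of which were named after their values were seen. Without KO MI replicate 2 the count was 5 higher and 0 lower (4.38% of all genes were DEGs), without replicate 7 it was 12 and 0 (10.9%), and without both it was 8 and 0 (6.37%). *Thbs1* and *Ccn5* were called although their groups overlapped, and *Ccn5* was not called without KO MI replicate 2 (log2 fold change 1.356, edgeR adjusted p = 0.15). *Myof*, *Igfbp3*, *Ccdc80*, *Tagln* and *Thbs1* were called in all 4 of these fits, *Tagln* with a log2 fold change of 1.03 that was 0.52 without replicate 2. *Ccdc80* was not called without KO MI replicate 3, with a log2 fold change of 0.4993. In WT MI against WT SH 2 rose and 0 fell (2.13% and 0.645% of all genes), with a median of 0.18. In KO MI against WT MI 1 rose and 1 fell (0.57% and 1.16%), with a median of -0.00. In KO SH against WT SH 1 rose and 3 fell (2.48% and 2.53%), with a median of -0.16. The 4 contrasts share libraries, and no difference between their counts was tested beyond the interaction, in which 0 of the 25 passed, and 1, *Thbs1*, without KO MI replicate 7, when 4.18% of all genes did.

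*Ankrd1*, the cardiac ankyrin repeat protein that responds to stretch, was at 244, 238, 261 and 245 CPM in WT MI and at 372, 1002, 363 and 383 CPM in KO MI. All 4 KO MI libraries were above the WT MI libraries, and replicate 2 was far above the rest. *Ankrd1* rose by 1.101 on the log2 scale in KO MI against WT MI (standard error 0.256, edgeR adjusted p = 0.0314) but by 0.59 without replicate 2 (edgeR adjusted p = 0.0295) and by 0.57 without replicates 2 and 7 (edgeR adjusted p = 0.0659). In KO MI against KO SH it rose by 0.89 (standard error 0.255, edgeR adjusted p = 0.0319), which was 0.38 without replicate 2 (edgeR adjusted p = 0.102). The interaction was 0.71 with an edgeR adjusted p of 0.397.

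*Myof*, which encodes the membrane repair protein myoferlin, rose post-MI in both genotypes. It was at 11.4, 9.60, 7.04 and 10.9 CPM in WT SH and at 12.8, 19.8, 17.9 and 16.2 CPM in WT MI (log2 fold change 0.77, edgeR adjusted p = 0.0231). With *Xist* as a covariate the log2 fold change in WT was 0.69 (edgeR adjusted p = 0.096). In KO *Myof* went from 7.78 ± 0.582 CPM after sham to 16.5 ± 4.45 CPM post-MI (SD, n = 4, log2 fold change 1.09, edgeR adjusted p = 0.00156). *Igfbp3*, a binding protein of insulin-like growth factors, rose from 8.23 ± 0.849 to 16.8 ± 4.78 CPM in KO (log2 fold change 1.03, edgeR adjusted p = 0.00254), and *Ccdc80*, a matrix protein, rose from 65.8 ± 4.403 to 97.5 ± 13.1 CPM (log2 fold change 0.57, edgeR adjusted p = 0.00206). *Birc5*, the mitotic protein survivin, rose by 0.63 on the log2 scale in the same contrast (edgeR adjusted p = 0.00629), which was 0.48 and under the fold threshold without KO MI replicate 2. *Fjx1* rose in WT MI against WT SH (log2 fold change 1.21, edgeR adjusted p = 0.0148) at levels under 1 CPM. With *Xist* as a covariate its log2 fold change was 1.20 (edgeR adjusted p = 0.0451). Fibroblast markers moved with these genes, since their sum was between 2082 and 2290 CPM in KO SH and between 2855 and 3196 CPM in KO MI, and 3 of the 9 were higher as DEGs in KO MI against KO SH. Other lists moved in that contrast too, with 6 of 7 macrophage, 6 of 7 tested skeletal muscle, 2 of 6 mesothelial and 2 of 7 smooth muscle and pericyte markers higher as DEGs. Of 10 cardiomyocyte markers 1 was lower as a DEG. At an adjusted p under 0.1 with any fold change, 3 of 7 endothelial markers were lower and 0 higher (7.32% and 10.2% of all genes). By that threshold 3 of 7 smooth muscle and pericyte markers were lower and 2 higher, and 2 of 10 cardiomyocyte markers were lower and 3 higher. The smooth muscle and pericyte list thus moved in both directions, and its median was -0.17 on the log2 scale. Its sums overlapped, at 712 to 786 CPM in KO MI against 715 to 772 CPM in KO SH. *Tagln* is also known as a smooth muscle gene, and the part of these cell types in the target genes was not tested.

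The CCN family divided between its members. *Ccn3* (NOV) was at 13.2, 12.2, 15.1 and 13.5 CPM in WT SH and at 8.72, 9.61, 8.85 and 7.82 CPM in KO SH. It was at 13.6, 12.2, 13.0 and 15.4 CPM in WT MI and at 10.6, 7.70, 10.2 and 8.94 CPM in KO MI. The KO libraries were all below the WT libraries of the same surgery. *Ccn3* fell by 0.62 on the log2 scale in KO SH against WT SH (standard error 0.103, edgeR adjusted p = 0.00158) and by 0.53 in KO MI against WT MI (standard error 0.101, edgeR adjusted p = 0.00934), the latter not called without KO MI replicate 2 (-0.44) or WT MI replicate 4 (-0.46). *Ccn4* (WISP1) was at 14.9 ± 1.3001 CPM in WT SH and 22.0 ± 1.18 CPM in KO SH, and it rose by 0.57 on the log2 scale (standard error 0.0994, edgeR adjusted p = 0.00248). In KO MI against WT MI *Ccn4* had a log2 fold change of 0.50, just below the threshold (standard error 0.0978, edgeR adjusted p = 0.0111), with no overlap, and it was a DEG there without KO MI replicate 7 and with DESeq2. The call of *Ccn4* in KO SH against WT SH was not made with *Xist* as a covariate, where the log2 fold change was 0.49 (edgeR adjusted p = 0.0137) and only the fold threshold was missed. The other DEGs of this contrast were *Thbs1*, at 55.8 ± 12.2 CPM in WT SH and 33.9 ± 5.24 CPM in KO SH, and *Nuak2*, at 1.95 ± 0.151 and 1.32 ± 0.314 CPM (SD, n = 4), both lower and both named after their values were seen. *Nuak2* was not called without KO SH replicate 4 (log2 fold change -0.43), and *Thbs1* was not called in 6 of the 8 fits without 1 library, all but those without WT SH replicate 3 or 4, with a log2 fold change between -0.86 and -0.62 in the 8 fits. *Arhgef17*, *Asap1*, *Axl* and *Rbms3*, the most abundant of the targets with no call, had log2 fold changes between -0.31 and 0.20 in the contrasts between groups.

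**Figure D5:**
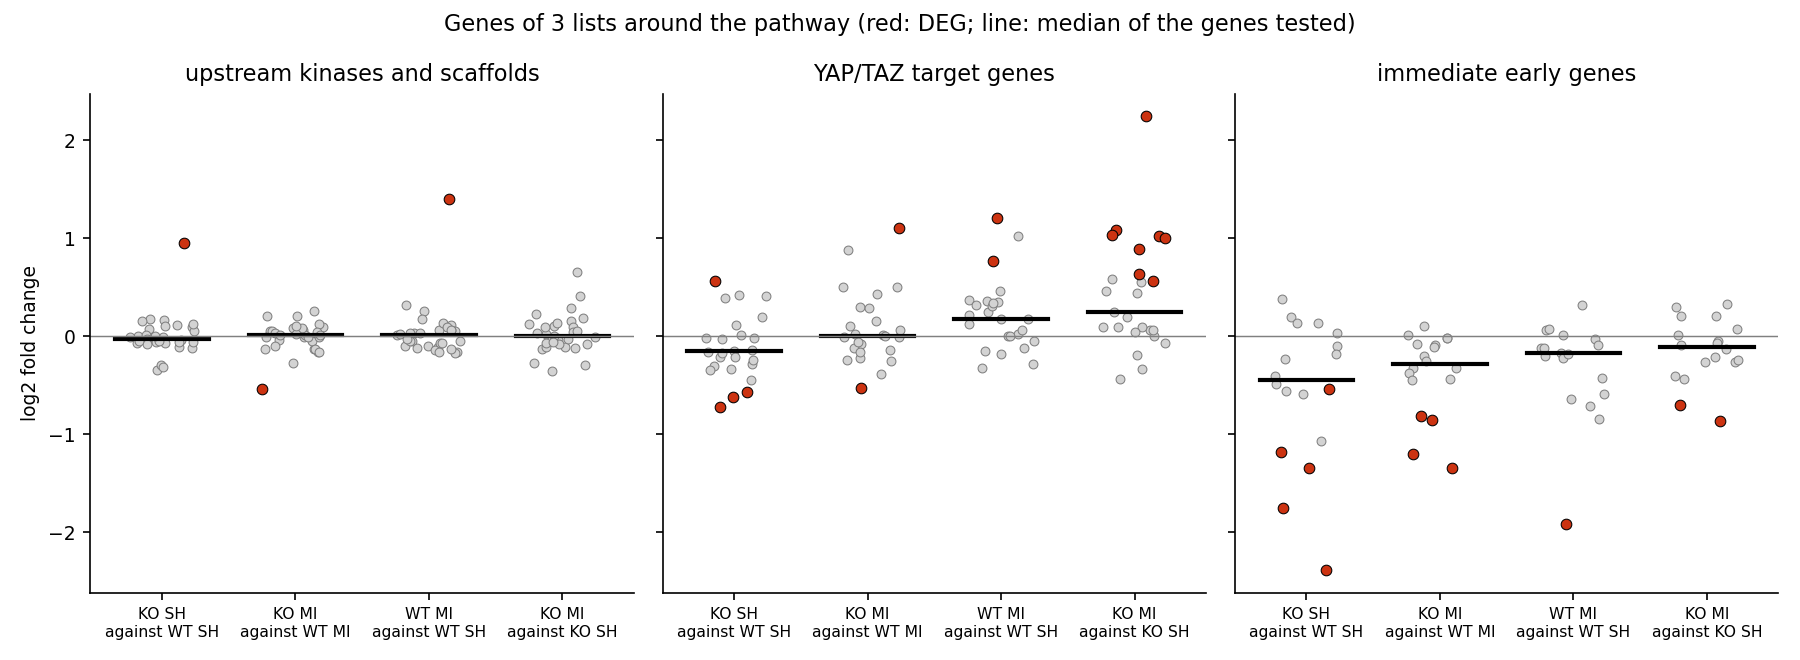
Log2 fold change (y axis) of each tested gene of 3 lists in the 4 contrasts (x axis), with DEGs in red and the median of the list as a black line. Upstream kinases and scaffolds lie near 0, 8 target genes are DEGs in KO MI against KO SH, and the DEGs among immediate early genes all lie below 0.

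Immediate early genes were read beside the pathway because *Ccn1* and *Ccn2* are induced with similar speed by serum and stretch. Of 18 genes, all tested, 4 fell and 0 rose in KO MI against WT MI (1.16% and 0.57% of all genes), and 5 fell and 0 rose in KO SH against WT SH (2.53% and 2.48%). *Nr4a1*, *Fos*, *Klf4* and *Dusp1* were called in both contrasts. In WT MI against WT SH 1 fell and 0 rose (0.645% and 2.13% of all genes). In KO MI against KO SH 2 fell and 0 rose (2.11% and 5.31%). The medians were -0.29, -0.44, -0.17 and -0.11 in the same order. The call of *Fos* in KO MI against WT MI (edgeR adjusted p = 0.0872) was lost in 6 of the 8 fits without 1 library, all but those without WT MI replicate 4 or KO MI replicate 7, with a log2 fold change between -1.34 and -1.05 in the 8 fits, so that the count was 3 without KO MI replicate 2. With *Xist* as a covariate the count was 4 in KO SH against WT SH, without *Egr3* (log2 fold change -1.07, edgeR adjusted p = 0.102), and 2 in WT MI against WT SH, with *Klf4*. Without KO MI replicate 2 it was 3 in KO MI against KO SH, with *Btg2*, and *Dusp1* was not called between the sham groups without WT SH replicate 1, where its log2 fold change of -0.48 (edgeR adjusted p = 0.0095) missed only the fold threshold. *Nr4a1*, a nuclear receptor, was at 33.5, 41.2, 22.4 and 24.3 CPM in WT SH and at 4.19, 6.02, 5.72 and 7.37 CPM in KO SH. It fell by 2.39 on the log2 scale in KO SH against WT SH (standard error 0.21, edgeR adjusted p = 2.86e-06) and by 1.34 in KO MI against WT MI (standard error 0.219, edgeR adjusted p = 0.00288). In the interaction 0 of the 18 genes passed (0.0248% of all genes). *Jun* and *Nr4a1* were called there without KO MI replicate 7 (4.18% of all genes), and *Nr4a1* with DESeq2 (1.05%). *Klf4*, a transcription factor, fell from 30.9 ± 2.40 to 13.7 ± 1.11 CPM between the sham groups and was at 23.0 ± 4.85 in WT MI and 13.1 ± 1.28 CPM in KO MI (SD, n = 4). *Dusp1*, a phosphatase of MAP kinases, fell by 0.54 in KO SH against WT SH (edgeR adjusted p = 0.00211) and by 0.86 in KO MI against WT MI (edgeR adjusted p = 5.88e-05) on the log2 scale. *Fos*, the AP-1 subunit, was at 12.4, 13.4, 4.72 and 5.25 CPM in WT SH, in the order in which *Ccn1* was at 14.7, 15.9, 8.64 and 9.26 CPM. WT SH replicates 1 and 2 were the highest of their group for both genes. The cell type markers that differed between the sham groups are given above with *Wwtr1*, and their part in the immediate early genes was not tested. With all libraries *Egr1*, *Btg2* and *Atf3* were not DEGs in any contrast, and *Jun* fell only in KO MI against KO SH (log2 fold change -0.71, edgeR adjusted p = 0.0225), where its groups overlapped.

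In the interaction the log2 values of the 10 genes ranged from -0.33 (*Tead4*, edgeR adjusted p = 0.453) to 0.31 (*Ccn2*, edgeR adjusted p = 0.805), and 2 of the 10 were above 0. For *Wwtr1* it was -0.10 (95% interval -0.27 to 0.07, edgeR adjusted p = 0.62) and for *Tead1* -0.01 (95% interval -0.17 to 0.16, edgeR adjusted p = 0.979). The intervals of *Ccn1*, -0.45 to 1.02, and of *Ccn2*, -0.66 to 1.29, were too wide to place either gene.

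The genes nearest in pattern were ranked by Pearson r of log2(CPM + 0.5) over the 16 libraries, among 9578 genes with a mean of at least 5 CPM, as a description only, since the values share libraries, depth and groups. Nearest to *Yap1* were *Rnf111* (r = 0.897, Spearman rho = 0.882), *Rab14* (0.891, 0.856) and *Nae1* (0.852, 0.632). Nearest to *Tead1* were *Rtn4* (r = 0.916, rho = 0.903), *Ccn4* (0.910, 0.915) and *Gk* (0.903, 0.876), so a target gene of the list was among its 3 neighbours. For deviations from the group means, r with *Tead1* was 0.812 for *Rtn4*, 0.697 for *Ccn4* and 0.852 for *Gk*. Nearest to *Ccn1* were *Zwint* (r = 0.859, rho = 0.765), *Tmem109* (0.834, 0.768) and *Pa2g4* (0.796, 0.721). Nearest to *Ccn2* were *Dpysl3* (r = 0.923, rho = 0.829), *Rasl11b* (0.884, 0.688) and *Rpl10* (0.872, 0.726). Nearest to *Amotl2* were *Vps53* (r = 0.810, rho = 0.765), *Ror1* (0.809, 0.765) and *Xirp1* (0.804, 0.703).

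Exons of 5 of the 10 genes overlap those of a gene on the opposite strand, and whether the counting used strand is not stated. *Gm17501* shares 468 exon bases with *Ccn1* and had 22 to 53 counts in a library, and *Gm15270* shares 1164 with *Ccn2* and had 25 to 39 counts. *Pcmt1* shares 165 exon bases with *Lats1* and had 710 to 1469 counts, of the order of the 1502 to 2207 counts of *Lats1*. *Gm20416* shares 116 with *Yap1* and had 0 to 5 counts. *Lats2* shares 229 with *Gm63514* on the opposite strand and 2955 with *Gm49361* on its own strand, neither of which the table lists, so its counts may include reads of either.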

How the data were processed

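RNA sequencing of ventricles gave 16 libraries, 4 in each group, and groups follow the labels. The authors deposited RSEM expected counts per gene, not normalized and given as whole numbers. The paper's methods name Skewer 0.1.123, STAR 2.5.3a, RSEM 1.3.0 and strand-specific paired reads of 150 bp aligned to GRCm39, whereas the submitters' processing notes list cutadapt 3.4, HISAT2 2.2.1 and RSEM 1.1.17. Which of these made the table was not settled, and the annotation release is not given in the sources used here. Multi-mapped reads are divided in proportion, so close paralogs are uncertain.

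Names, positions and exon lengths came from GENCODE M39, which matched 47772 of 51912 identifiers. Genes whose counts summed to 10 or more in each group were fitted in R 4.3.3 with edgeR 4.0.16 (limma 3.58.1), TMM and 1 coefficient per group over all 16 libraries, using two-sided quasi-likelihood F-tests with Benjamini-Hochberg adjustment over the 20159 genes. The paper used DESeq2, run here as an alternative (1.42.0). DEG thresholds follow the paper. Single genes were also compared by exact permutation over 70 arrangements. The procedure was tested on simulated data. Promoter windows, 250 bases before the canonical start site, were read from GRCm39 for 9 of the 10 genes, and that of the other gene is not reported here. The floor of 3 counts equals 0.0577 to 0.0858 CPM, depending on the library, and covers counting error alone.

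Lists were described by counts and medians. Genes named are the 10 members, *Lrrc10*, *Xist*, the called genes of each list (at most 8, by p), and up to 4 others of highest mean CPM. Nearest patterns are the 3 of highest Pearson r. The members and lists were chosen with earlier results of these data known. Alternatives were other normalizations, filters, thresholds and fits, *Xist* as a covariate, the replicate number as a block, and leaving out libraries. Counts and values of list genes without each library or without KO MI replicates 2 and 7, with *Xist* as a covariate and with DESeq2 were added after seeing the data.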

Additional observations from a re-analysis of the deposited data

Results flagged for a closer look

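In groups of 4 libraries, the highest or lowest library was marked where its gap to the nearest other library exceeded 0.829 of the range of the group. This was checked for the 10 Hippo-YAP genes in 4 groups, 40 sets in all, of which 2 were marked, and chance marks about 1 set in 20. *Tead1* in KO MI replicate 2 was at 374 CPM, with a gap of 0.878 of the range. *Ccn1* in KO SH replicate 4 was at 12.9 CPM, with a gap of 0.832 of the range. *Ccn2* at 93.9 CPM in KO MI replicate 2 was not marked, because replicate 7 at 37.8 CPM lies between it and the rest.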

How the results depend on the processing

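The count of DEGs among the 10 genes was 0 in each contrast of the reported analysis, and it became 1 in WT MI against WT SH (*Ccn2*) with only these groups fitted or without KO MI replicates 2 and 7, and 1 in KO MI against KO SH (*Ccn2*, log2 fold change 0.84, edgeR adjusted p = 0.0617) without a filter on low counts. With no minimum fold change it was 1, 2, 0 and 1 in KO MI against WT MI, KO SH against WT SH, WT MI against WT SH and KO MI against KO SH. Leaving out 1 library at a time gave 0 to 1 in KO MI against KO SH and 0 in the other contrasts. Here and below, this left out libraries of the groups of the contrast only, and any of the 16 for the interaction. Fits without 1 library of another group are not part of these ranges. DESeq2, its size factors in edgeR, library sizes without mitochondrial genes, filterByExpr, a robust fit, the replicate block, *Xist* as a covariate and an adjusted p under 0.05 left the count at 0 in all 5 contrasts. Both scaling alternatives moved the median of all genes by less than 0.1.

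Among all genes, KO MI against WT MI gave 348 DEGs, 192 with only these groups, 619 with no minimum fold change and 229 to 582 without 1 library (lowest without WT MI replicate 1, highest without KO MI replicate 7). KO SH against WT SH gave 1010, 2486 with no minimum fold change and 665 to 1232 without 1 library (lowest without WT SH replicate 1). WT MI against WT SH gave 560, 1071 with no minimum fold change and 281 to 642 without 1 library of these groups (lowest without WT MI replicate 2). It gave 694 without KO MI replicate 2 and 686 without KO MI replicate 7. KO MI against KO SH gave 1495, 3536 with no minimum fold change and 883 to 2200 without 1 library (lowest without KO MI replicate 2). The interaction gave 5, and 211 with DESeq2, 39 without a filter, 8 with a robust fit, 19 with *Xist* as a covariate, 3 at an adjusted p under 0.05, 358 without KO MI replicates 2 and 7 and 2 to 843 without 1 library (highest without KO MI replicate 7).

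Of the other pathway genes, 3 were called in KO MI against WT MI, and 5 with no minimum fold change and 2 to 5 without 1 library. In KO SH against WT SH 5 were called, and 3 with *Xist* as a covariate, 3 at an adjusted p under 0.05 and 13 with no minimum fold change. The count was 2 to 4 without 1 library of these groups, and the 5 genes stayed called without KO MI replicate 2 or without replicate 7. In WT MI against WT SH 3 were called throughout the fits without 1 library. In KO MI against KO SH 9 were called, and 20 with no minimum fold change and 5 to 13 without 1 library. In the interaction 0 to 1 were called without 1 library.

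The replicate numbers did not pair the samples, as correlations of deviations between libraries of the same number ranged from -0.0565 to 0.175. With the replicate block the interaction gave 689 DEGs and 1 of the other pathway genes, and no count in the other contrasts moved by over 1.5 times. Replicate number 7 occurs only in KO MI, so its block level fits that library alone and takes it out of the contrasts. Leaving out KO MI replicate 7 gave 843 DEGs in the interaction. The log2 fold changes that changed sign with this block were *Ccn1* at 0.015 and *Amotl2* at 0.0018 in WT MI against WT SH, *Tead4* at -0.047 in KO MI against KO SH, *Yap1* at 0.015 and *Tead1* at 0.022 in the interaction.

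Other changes of sign were in values that had not passed. Without KO MI replicates 2 and 7, the values were *Ccn2* at -0.29 and *Amotl2* at -0.073 in KO MI against WT MI, *Tead4* at -0.022, *Ccn1* at -0.20 and *Ccn2* at -0.12 in KO MI against KO SH, *Yap1* at 0.030, *Ccn1* at -0.19 and *Ccn2* at -0.65 in the interaction. Without a filter on low counts, the values were *Yap1* at -0.00037 in KO MI against WT MI and *Amotl2* at 0.0029 in WT MI against WT SH. With only the groups of the contrast, *Amotl2* was at 0.0064 in WT MI against WT SH. With *Xist* as a covariate, the values were *Lats1* at -0.018 in WT MI against WT SH, *Yap1* at 0.0023 and *Tead1* at 0.041 in the interaction. Without 1 library, the values that crossed 0 in KO MI against WT MI ran from -0.035 to 0.045 for *Yap1*, -0.44 to 0.060 for *Ccn1*, -0.0023 to 0.91 for *Ccn2*. In KO SH against WT SH they ran from -0.042 to 0.021 for *Lats1*. Those in WT MI against WT SH ran from -0.049 to 0.013 for *Wwtr1*, -0.018 to 0.031 for *Lats1*, -0.0081 to 0.072 for *Vgll4*, -0.14 to 0.14 for *Ccn1*, -0.058 to 0.048 for *Amotl2*. Those in KO MI against KO SH ran from -0.042 to 0.070 for *Tead4*, -0.088 to 0.46 for *Ccn1*, -0.11 to 0.027 for *Amotl2*. Those in the interaction ran from -0.064 to 0.016 for *Yap1*, -0.059 to 0.021 for *Tead1*, -0.079 to 0.47 for *Ccn1*, -0.37 to 0.54 for *Ccn2*, -0.11 to 0.027 for *Amotl2*. The cause of these changes was not tested.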
